A study of Mus musculus with 6 samples.

Results

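The Fc gamma receptors, the cell surface receptors that myeloid cells use to bind IgG antibodies, were described across the mononuclear phagocytes of mouse skin. The members were fixed by name: Fcgr1, Fcgr2b, Fcgr3, Fcgr4 and Fcer1g, which are 5 of the 16158 genes measured in all 6 single-cell libraries. Their levels were read in macrophage-like, monocyte-like, dendritic-like and Langerhans-like cells. These genes were kept out of the clustering and of the marker lists, so no class was built from them. They were among the genes used by the cell filters and the doublet scores.

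Each library came from the skin of 1 mouse of the NINJA strain, aged 6 to 12 weeks, and there were 3 groups of 2 mice, labelled NO_AG, AG and AG_CPI. The design text names them Ag OFF, Ag ON and Ag ON/CPI, and the labels do not spell out CPI. All 6 mice, NO_AG included, gave skin from an area treated with 4-OH-Tam, the active form of tamoxifen that switches on inducible Cre enzymes. Before sequencing, every mouse was examined for visible skin disease and for the entry and function of P14 CD8 T cells, a transgenic T cell population, so the phenotype of each mouse was known beforehand. The labels give no sex, cage, sequencing date, or promoter for the inducible allele. The 10x 5' kit tags 1 end of each transcript, so a UMI (a unique molecular identifier, 1 captured molecule) counts a transcript whatever its length.

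Fc gamma receptors link antibody to the cells that act on it. The ligand-binding chains Fcgr1, Fcgr3 and Fcgr4 are activating receptors. They need Fcer1g, the common gamma chain, to reach the cell surface and to signal, because Fcer1g carries the tyrosine motif (ITAM) that recruits the kinase Syk. Fcgr2b is the inhibitory receptor: it carries its own tyrosine motif (ITIM), which recruits phosphatases and dampens the activating receptors on the same cell. In skin, macrophages carry all of these chains, while Langerhans cells and dendritic cells are known for Fcgr2b and for few activating receptors.

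The coding stretches that define the 2 kinds of chain are shown because the rest of the text turns on the split between activating and inhibitory receptors. They were read from the GENCODE vM21 transcripts of GRCm38, 5′ to 3′, and capitals mark the tyrosine codons. The Fcer1g stretch covers codons 65 to 79 of 86, and the Fcgr2b stretch covers codons 317 to 322 of 340.
Fcer1g ITAM: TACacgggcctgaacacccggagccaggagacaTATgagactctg
Fcgr2b ITIM: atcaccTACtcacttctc
A search of the other 4 coding sequences for the ITAM pattern found 0 matches, so among these genes the activating motif lies on the shared chain alone. The shorter ITIM pattern also matched 2 times in Fcgr1 and 1 time in Fcgr4, and a letter match is not a working motif.

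All but Fcgr1 are neighbours. On GRCm38, Fcgr2b (chr1:170958617-170976547, minus strand), Fcgr4 (chr1:171018920-171029761, plus strand), Fcgr3 (chr1:171051174-171064935, minus strand) and Fcer1g (chr1:171229572-171234365, minus strand) lie within 275.7 kb, while Fcgr1 lies at chr3:96282909-96293969 on the minus strand. The first transcripts of Fcgr2b and Fcgr3 share an identical run of 129 bases. Of all 50-base windows, 4.75% of those in Fcgr2b occur in Fcgr3 and 12.79% of those in Fcgr3 occur in Fcgr2b. Reads from these stretches cannot be assigned to 1 gene, so the values of Fcgr2b and Fcgr3 are uncertain to that extent. The longest identical run between any other pair was 14 bases.

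The sequence just upstream of the transcription start is shown for the 3 activating receptors, because interferon gamma and the myeloid factor PU.1 are textbook regulators of this family and genes of the interferon gamma response are described below. The stretches come from RefSeq on GRCm38.p6, are written 5′ to 3′ on the strand of the gene, and cover chr3:96293970-96294119 for Fcgr1, chr1:171018770-171018919 for Fcgr4 and chr1:171059404-171059553 for Fcgr3. Capitals mark matches to 3 motifs searched on both strands.
Fcgr1: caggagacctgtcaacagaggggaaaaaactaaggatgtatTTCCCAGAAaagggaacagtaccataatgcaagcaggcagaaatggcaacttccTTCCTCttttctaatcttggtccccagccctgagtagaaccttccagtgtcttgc
Fcgr4: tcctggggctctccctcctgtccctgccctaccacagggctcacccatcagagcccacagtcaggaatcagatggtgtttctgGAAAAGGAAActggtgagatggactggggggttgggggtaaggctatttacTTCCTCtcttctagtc
Fcgr3: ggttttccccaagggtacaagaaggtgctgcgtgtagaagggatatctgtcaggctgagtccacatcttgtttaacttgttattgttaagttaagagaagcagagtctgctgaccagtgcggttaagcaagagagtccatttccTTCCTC
The gamma-activated site TTCNNNGAA matched in Fcgr1 from base -109 to base -101. The interferon-stimulated element, GAAA, any pair of bases and GAAA again, matched in Fcgr4 from base -73 to base -64. The PU box GAGGAA matched on the reverse strand in Fcgr1 (-55 to -50), in Fcgr4 (-22 to -17) and in Fcgr3 (-6 to -1, or -15 to -10 from a second RefSeq start of that gene), and no 2 matches overlapped. Within the 250 bases upstream of the start, 7.02% of 32851 RefSeq promoters held the first motif, 2.98% the second and 23.3% the third. The same 250 bases of Fcer1g and of Fcgr2b held 0 matches to any of the 3, which says only that these letters are absent from those windows. The Fcgr2b window differs in kind, since 187 of its 250 bases are exon bases, against 0 to 27 for the other 4 genes.

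The 6 libraries held 21178 cells and 5903724 to 24656382 UMIs, with medians of 2527 to 4744 UMIs per cell, and 20464 cells were kept. The macrophage-like class held 25, 17, 158, 529, 216 and 201 cells in NO_AG 1, NO_AG 2, AG 1, AG 2, AG_CPI 1 and AG_CPI 2, the order used throughout. Of 18 macrophage markers, 17 or 18 were detected in this class in every mouse. The dendritic-like class held 16 to 84 cells per mouse with 19 or 20 of 20 markers detected. The Langerhans-like class held 188, 121, 33 and 29 cells in the NO_AG and AG mice with 10 of 10 markers detected. The same 10 markers were detected in dendritic-like cells of all 6 mice, at summed levels of 14.6 to 68.4 against 118 to 183. Dendritic markers summed to 149 to 332 in Langerhans-like cells and to 167 to 411 in dendritic-like cells. Detection of the markers alone thus does not set these 2 classes apart. No Langerhans-like cell was found among the 1712 and 2168 retained cells of AG_CPI 1 and AG_CPI 2 (95% Wilson upper bounds of 0.224% and 0.177%), against 0.647% of the cells of AG 2. Only 20 monocyte-like cells were found, so that class enters no comparison. Libraries shared 5 to 35 cell barcodes per pair, at most 0.856% of the smaller library. In AG_CPI 1 the expression of sex-linked genes stood apart from the other 5 mice, and values without that mouse are given with the class-wide receptor results.

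Macrophage-like cells carried all 5 genes, and the mean of each was higher in AG and in AG_CPI than in NO_AG. Fcgr4 and Fcgr1, both activating, differed most. Fcer1g, the shared signalling chain, was 2.82-fold higher in AG than in NO_AG after scaling between libraries, or 2.04-fold without that scaling. The inhibitory Fcgr2b rose as well, while Fcgr3, the activating receptor with the highest level in NO_AG, differed least and passed the test only in AG_CPI against NO_AG. No receptor differed detectably between AG and AG_CPI. Levels are the mean, over the cells of a class, of UMIs per 10000 UMIs of the cell.

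**Figure D1:**
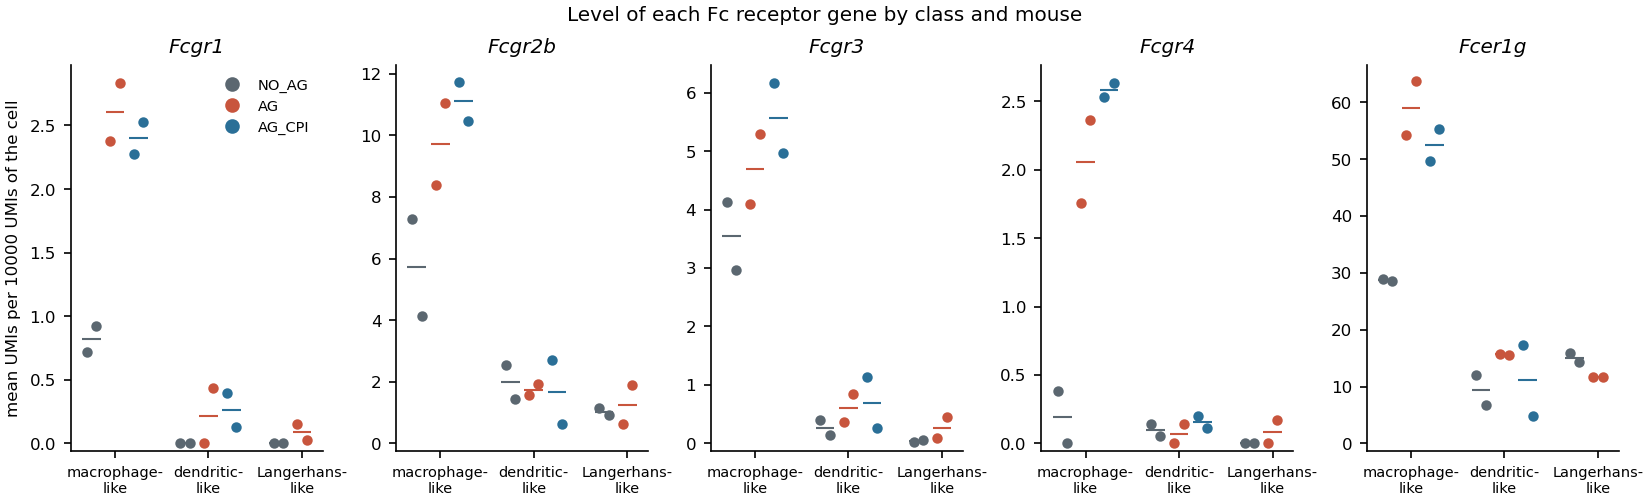
Level of each Fc receptor gene (y axis, mean UMIs per 10000 UMIs of the cell, a separate scale per gene) in macrophage-like, dendritic-like and Langerhans-like cells (x axis). Each point is 1 mouse coloured by group, the short lines are group means, and Langerhans-like cells were found in NO_AG and AG mice only; Fcgr4 lay at 0 to 0.382 in macrophage-like cells of NO_AG and at 1.76 to 2.64 in the other groups.

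Among the activating receptors, Fcgr1, the high-affinity receptor that can hold monomeric IgG, had levels of 0.720 and 0.927 in the NO_AG mice, 2.38 and 2.84 in the AG mice, and 2.28 and 2.52 in the AG_CPI mice. The 4 mice of AG and AG_CPI were all above both NO_AG mice, and the AG and AG_CPI mice overlapped. The group means were 0.824 ± 0.146 (SD, n = 2 mice), 2.61 ± 0.324 and 2.40 ± 0.175. The NO_AG level rests on 6 and 5 UMIs, so it was known only roughly. In UMIs summed over the mice of a group, the ratio of AG to NO_AG was 3.30 (95% exact interval 1.84 to 6.64, counting error only).

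Fcgr4, an activating receptor of intermediate affinity found on monocytes, macrophages and neutrophils, had levels of 0.382 and 0 in the NO_AG mice, 1.76 and 2.36 in the AG mice, and 2.53 and 2.64 in the AG_CPI mice. It was close to absent from the macrophage-like cells of NO_AG and present in every AG and AG_CPI mouse, with no overlap. Its group means were 0.191 ± 0.270, 2.06 ± 0.427 and 2.58 ± 0.0758 (SD, n = 2 mice). NO_AG held 2 UMIs of Fcgr4 in all, against 694 in AG and 603 in AG_CPI. The ratio of AG to NO_AG was 15.2 (95% exact interval 4.20 to 126) and that of AG_CPI to NO_AG was 17.8 (4.92 to 148), so the size of the difference was poorly bounded above. The 0 in NO_AG 2, of 17 cells, allows a share of cells with a UMI of up to 17.6%.

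Fcgr3, the low-affinity activating receptor, had levels of 4.13 and 2.97 in the NO_AG mice, 4.10 and 5.29 in the AG mice, and 6.17 and 4.97 in the AG_CPI mice. On this scale AG 1 lay just under NO_AG 1, so the groups overlapped. Its group means were 3.55 ± 0.820, 4.69 ± 0.846 and 5.57 ± 0.846 (SD, n = 2 mice).

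The inhibitory receptor Fcgr2b had levels of 7.30 and 4.14 in the NO_AG mice, 8.39 and 11.1 in the AG mice, and 11.7 and 10.5 in the AG_CPI mice. All 4 AG and AG_CPI mice were above both NO_AG mice, although AG 1 was only slightly above NO_AG 1. Its group means were 5.72 ± 2.23, 9.73 ± 1.89 and 11.1 ± 0.895 (SD, n = 2 mice).

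The signalling chain Fcer1g had levels of 29.0 and 28.5 in the NO_AG mice, 54.3 and 63.7 in the AG mice, and 49.7 and 55.2 in the AG_CPI mice. The NO_AG mice were almost equal and far below the rest, and the AG and AG_CPI mice overlapped. Its group means were 28.7 ± 0.296, 59.0 ± 6.61 and 52.5 ± 3.92 (SD, n = 2 mice), above those of every receptor it serves.

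The shares of macrophage-like cells with a UMI were compared after every cell was thinned to 1500 UMIs, which removes depth as a difference, and for the 4 receptors they were higher in the AG and AG_CPI mice than in both NO_AG mice. Fcgr1 was then seen in 4% and 5.88% of cells in NO_AG and in 21.8% to 30.1% in the other 4 mice. Fcgr4 was seen in 8% and 0% against 21.5% to 32.9%, and Fcgr2b in 44% and 35.3% against 67.1% to 79.2%. For Fcgr3 the shares were 44% and 41.2% against 45.6% to 58.3%, a narrower gap. Fcer1g was seen in 98.7% to 100% of cells in every mouse, so its share did not separate the groups. Without thinning, Fcgr1 had a UMI in 16% and 23.5% of NO_AG cells, at medians of 2413 and 2836 UMIs per cell, and in 54.1% to 60.8% in the other mice, at medians of 3463 to 6849.5.

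Free RNA in the cell suspension can place such UMIs in cells that do not make the transcript. In keratinocyte-like cells, which should lack these receptors, Fcgr1 and Fcgr4 had 0 UMIs in 5 of 6 mice, and in AG 2 they were seen in 0.595% and 0.298% of 672 cells at a median of 2181 UMIs per cell. Fcgr2b and Fcgr3 were seen in at most 2.08% and 1.49% of keratinocyte-like cells, both in AG 2. Fcer1g was seen in 1.06% to 3.75% in 5 mice and in 21.7% in AG 2, at a mean level of 1.32 there. For Fcer1g the keratinocyte-like cells of AG 2 thus stood above those of the other 5 mice. For Fcgr1 and Fcgr4 the AG_CPI mice had few such cells, so their counts of 0 do not bound the share closely. The part of free RNA in the levels of AG 2 was not tested.

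The tests used limma across the 6580 genes that passed a filter on low values, on log2 of the scaled mean per mouse plus 0.1, with Benjamini-Hochberg adjustment over all of them. All 5 genes passed the filter, but Fcgr1 and Fcgr4 passed through AG and AG_CPI mice alone, so their being tested already required a difference or a high level there. With 2 mice a group, an exact permutation test cannot give a p below 0.333, and each limma p rests on a spread shared between groups and genes. The median over all genes was itself 0.45 in AG against NO_AG and 0.44 in AG_CPI against NO_AG (log2), so changes are also given relative to it.

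In AG against NO_AG, 4 of the 5 genes were called, all higher, where 13.6% of all genes tested were called and 12.4% were called higher. Fcgr1 rose by 1.98 on the log2 scale (SE 0.24, limma adjusted p = 0.00779), a 3.94-fold change. Fcer1g rose by 1.495 (SE 0.17, limma adjusted p = 0.00722), a 2.82-fold change, in both AG mice. Fcgr4 was higher by 3.55 (SE 0.59, limma adjusted p = 0.0166), a value that depends on the added 0.1 because NO_AG holds 2 UMIs. On simulated data genes with under 10 UMIs in NO_AG were called too often. Fcgr2b rose by 1.26 (SE 0.28, limma adjusted p = 0.0327), a 2.39-fold change. Fcgr3 missed the threshold, with a difference of 0.85 (95% interval 0.29 to 1.42, limma adjusted p = 0.0580).
Relative to the median of all genes, the differences were 3.102 for Fcgr4, 1.53 for Fcgr1, 1.04 for Fcer1g, 0.81 for Fcgr2b and 0.40 for Fcgr3.

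AG_CPI against NO_AG uses the same NO_AG mice, so it is no independent repeat. All 5 genes were called higher, where 14.3% of all genes tested were called in either direction. Fcgr4 was higher by 3.89 (SE 0.59, limma adjusted p = 0.0112), Fcgr1 by 1.87 (SE 0.24, 0.00701) and Fcgr2b by 1.46 (SE 0.28, 0.0219). Fcer1g rose by 1.33 (SE 0.17, limma adjusted p = 0.00726) and Fcgr3 by 1.11 (SE 0.24, limma adjusted p = 0.0304). On the scaled level, all 5 genes were above both NO_AG mice in all 4 mice of AG and AG_CPI, as were 37.5% of the genes tested.

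Between AG_CPI and AG, which share the AG mice with the first comparison, none of the 5 genes was called, and neither was any of the 6580 genes (0.0% called by limma, while 101 had an unadjusted p under 0.05). The differences were -0.11 for Fcgr1 (95% interval -0.66 to 0.45), 0.21 for Fcgr2b (-0.46 to 0.87), 0.25 for Fcgr3 (-0.32 to 0.82), 0.33 for Fcgr4 (-1.05 to 1.72) and -0.16 for Fcer1g (-0.56 to 0.24). The intervals allow a change of up to 1.83-fold higher for Fcgr2b and 3.30-fold higher for Fcgr4, so equal levels are not shown. Without AG_CPI 1 the differences lay between -0.09 and 0.36 and again none was called.

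**Figure D2:**
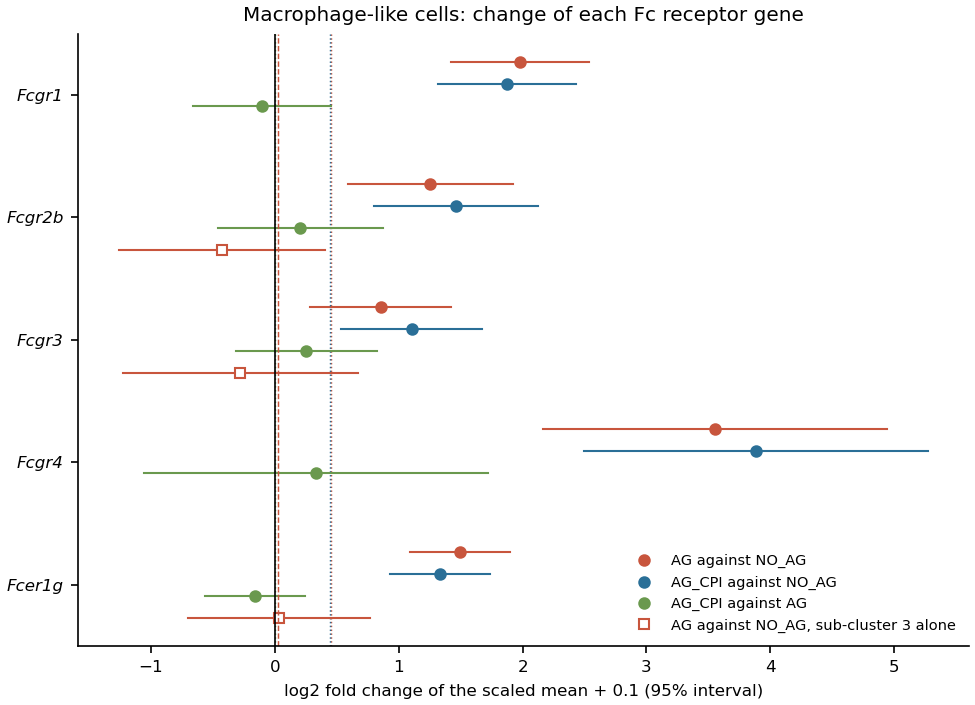
Log2 fold change of the scaled mean level plus 0.1 (x axis) for each gene (y axis) in macrophage-like cells, with 95% intervals from limma; circles are the 3 comparisons over the whole class and open squares are AG against NO_AG within sub-cluster 3 alone. The dotted lines mark the median of all genes in the comparisons with NO_AG (0.45 and 0.44) and the dashed line that within sub-cluster 3 (0.03); Fcgr4 lies at 3.55 and Fcgr3 at 0.85 in AG against NO_AG, and the values of AG_CPI against AG lie between -0.16 and 0.33.

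These calls had limits. Leaving out AG 1 or AG 2 ended every call in AG against NO_AG: without AG 1 the limma adjusted p was 0.114 for Fcgr1, 0.158 for Fcgr2b, 0.139 for Fcgr4 and 0.0933 for Fcer1g, and without AG 2 it was 0.118, 0.199, 0.148 and 0.101, with 0 of all genes called either time. Leaving out NO_AG 1 or NO_AG 2 kept all 4 calls and added Fcgr3 (limma adjusted p = 0.00212 and 0.0478), in fits that called 3299 and 2784 of all 6577 genes. In AG_CPI against NO_AG, leaving out AG_CPI 1, the mouse that stood apart, ended all 5 calls (limma adjusted p from 0.138 to 0.239), at differences of 1.94 for Fcgr1, 1.37 for Fcgr2b, 0.95 for Fcgr3, 3.93 for Fcgr4 and 1.40 for Fcer1g, and leaving out AG_CPI 2 did the same (0.121 to 0.150). The direction was the same each time. In these fits a lone mouse is assumed to vary like the other groups. Under the deposited scaling alone, the median of all genes was 0.13 in AG against NO_AG. The differences there were 3.28 for Fcgr4, 1.56 for Fcgr1, 1.03 for Fcer1g, 0.80 for Fcgr2b (limma adjusted p = 0.146) and 0.40 for Fcgr3 (95% interval -0.19 to 0.99). In AG_CPI against NO_AG that scaling gave 1.00 for Fcgr2b (limma adjusted p = 0.0868) and 0.65 for Fcgr3 (0.157).
Without a filter on low values, Fcgr2b (limma adjusted p = 0.0780) and Fcgr4 (0.0593) lost the call in AG against NO_AG, as did Fcgr2b (0.0688) and Fcgr3 (0.0752) in AG_CPI against NO_AG. With the filter raised to 10 UMIs in every group, 1849 genes were left, of which 23.1% were called in AG against NO_AG, and Fcgr3 was called there too (limma adjusted p = 0.0427), while Fcgr4 was not tested. Fitted on only the 2 groups compared, Fcgr2b lost the call in AG against NO_AG (limma adjusted p = 0.0803) and Fcgr3 lost it in AG_CPI against NO_AG (0.0557).

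The class differed in make-up between groups, and depth moved with it. Re-clustering split the macrophage-like cells into 6 sub-clusters. Sub-cluster 3, led by Retnla, Folr2 and Ccl8, held 68% and 76.5% of the macrophage-like cells of NO_AG (17 and 13 cells), 8.23% and 2.65% of those of AG, and 1.39% and 3.98% of those of AG_CPI. Sub-clusters 6 (led by Tmem119 and Acp5), 7 (Ccrl2, Syngr1 and Ptgs2), 8 (Gng11, Saa3 and Nos2), 9 (the interferon-induced Ifit3 and Ifit2) and 11 (Ccl24) held the rest. Median depth was 2413 and 2836 UMIs per cell in NO_AG and 3463 to 6849.5 in the other mice. The summed level of 7 neutrophil markers was 3.33 and 2.44 in NO_AG and 5.60 to 14.1 in the other mice, with Retnlg at 0 in all 6. Dendritic markers summed to 80.6 and 97.2 in NO_AG and 41.7 to 62.2 in the other mice, with 11 to 18 of 20 detected, and Langerhans markers to 7.69 and 5.54 against 8.37 to 12.9, with 6 to 10 of 10 detected. The summed level of 13 keratinocyte markers was 2.84 to 4.76 in 5 mice and 9.59 in AG 2. The part of these differences in the receptor levels was not tested.

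Within sub-cluster 3 alone, the receptors did not differ detectably between AG and NO_AG. Fcer1g had levels of 29.4 and 27.3 in NO_AG and 28.2 and 28.3 in AG, values that overlapped fully. The difference was 0.03 (95% interval -0.70 to 0.76, limma adjusted p = 0.998). Fcgr2b had levels of 8.37 and 4.60 in NO_AG and of 4.37 and 4.58 in AG. Fcgr3 had 4.95 and 3.08 against 2.11 and 4.60. Both genes gave differences below 0, of -0.43 (95% interval -1.26 to 0.40) and -0.28 (-1.23 to 0.67), the opposite sign to the whole class. Fcgr1 stood at 0.666 and 0.839 in NO_AG and at 0 and 1.65 in AG, and Fcgr4 at 0.186 and 0 against 0.502 and 0.317; neither passed the filter. With 13 to 17 cells per mouse, limma tested 559 genes here and called 1, while 24 had an unadjusted p under 0.05. No AG_CPI mouse had 10 cells of this sub-cluster.

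In the other sub-clusters only AG and AG_CPI mice had 10 cells or more. Since the sub-clusters were made from these cells, the levels are a description. In sub-cluster 9, with the interferon-induced genes, Fcgr1 had levels of 3.43 and 4.29 in AG and 4.61 and 3.91 in AG_CPI. These were above every value of sub-clusters 6, 7 and 8, where Fcgr1 ran from 1.41 to 3.07. Fcgr4 was also highest in sub-cluster 9, at 2.99 and 3.60 in AG and 3.77 and 3.74 in AG_CPI, against 0.506 to 2.73 in sub-clusters 6 to 8. In sub-cluster 9 Fcer1g stood at 70.7 and 70.4 in the AG mice and at 57.5 and 60.2 in the AG_CPI mice, against 41.3 to 67.1 in sub-clusters 6 to 8, so these ranges overlapped.
Sub-cluster 11 had the highest Fcgr3, at 7.11 and 7.87 in the AG mice. Its Fcgr4 was low in AG 1 at 0.135 and higher in AG 2 at 1.35, and its Fcer1g stood at 30.6 and 61.4. Fcgr2b ran from 4.37 to 8.37 in sub-cluster 3, from 5.32 to 12.2 in sub-cluster 6, and from 9.41 to 14.2 in sub-clusters 7, 8, 9 and 11. Within sub-cluster 6, AG_CPI against AG gave 1.11 for Fcgr4 (SE 0.34, limma adjusted p = 0.145), which missed the threshold.

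**Figure D3:**
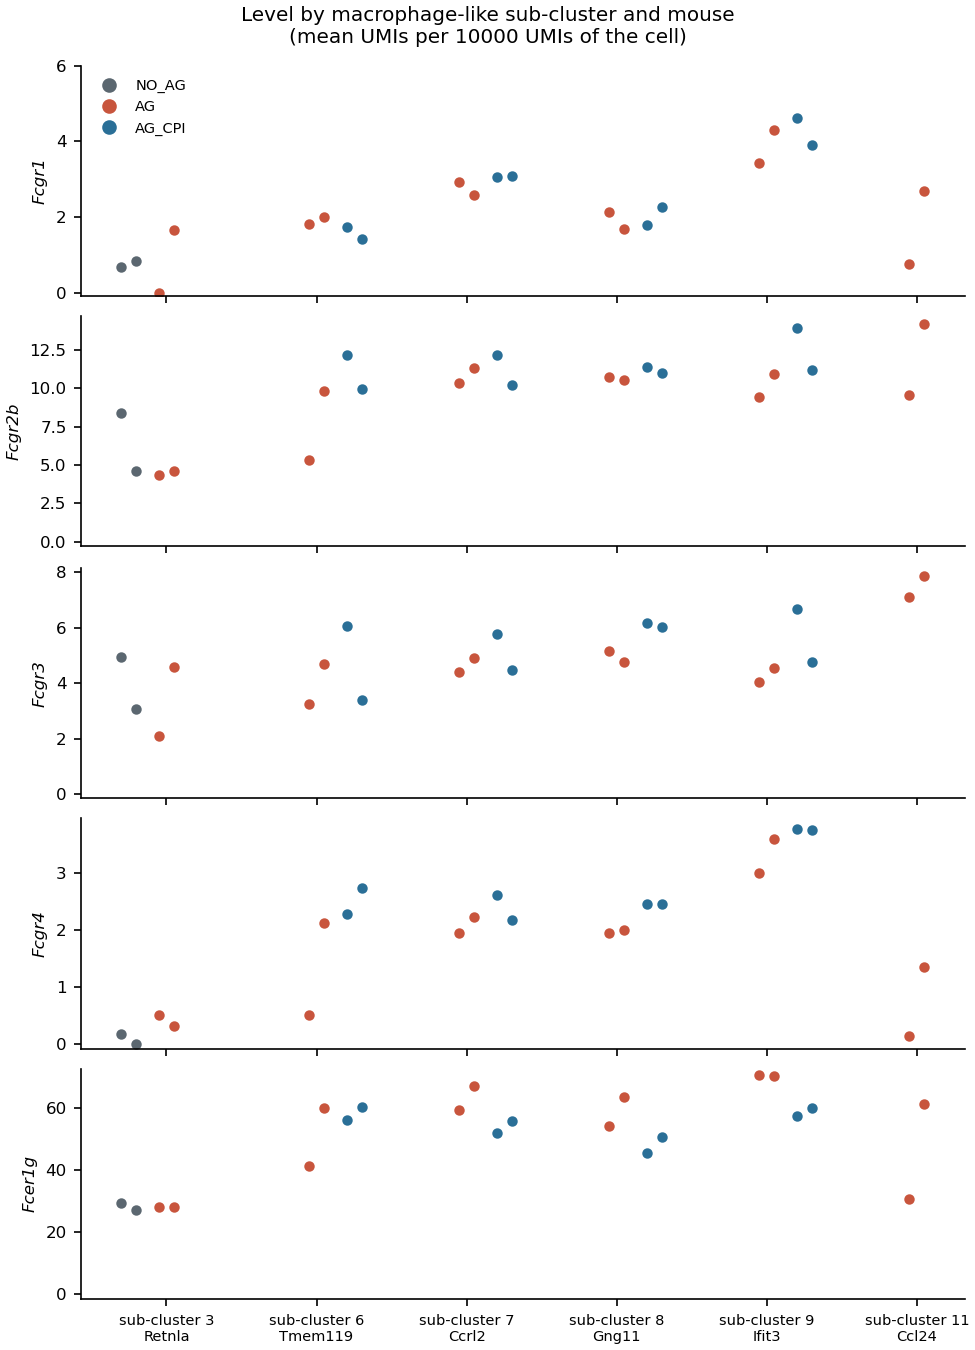
Level of each gene (1 panel each, mean UMIs per 10000 UMIs of the cell) in the 6 macrophage-like sub-clusters (x axis, each with its leading gene), for mice with at least 10 cells there. Each point is 1 mouse coloured by group; Fcgr1 and Fcgr4 are highest in sub-cluster 9, and Fcer1g lies at 27.3 to 29.4 in sub-cluster 3.

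The balance of activating to inhibitory receptors was read as a ratio. In macrophage-like cells the log2 ratio of the summed levels of Fcgr1, Fcgr3 and Fcgr4 to Fcgr2b was -0.48 and -0.09 in the NO_AG mice, -0.03 and -0.08 in the AG mice, and -0.10 and -0.05 in the AG_CPI mice. NO_AG 1 was lower than the rest, at 44.0% activating of 84 UMIs (95% Wilson interval 33.9% to 54.7%, counting error only), against 48.9% to 51.0% in the other 5 mice. The make-up of the activating sum was as follows. Fcgr3 supplied 78.9% and 76.2% of it in NO_AG and 49.1% to 56.2% in the other mice. Fcgr4 supplied 7.31% and 0% in NO_AG and 21.4% to 26.0% elsewhere, and Fcgr1 supplied 13.8% and 23.8% in NO_AG and 20.7% to 28.9% elsewhere.
In cells thinned to 1500 UMIs, an activating and the inhibitory receptor were seen together in 24% and 5.88% of macrophage-like cells of NO_AG and in 47.5% to 62.0% of those of the other mice. Neither kind was seen in 32% and 29.4% of the NO_AG cells and in 5.97% to 13.3% of the others.

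**Figure D4:**
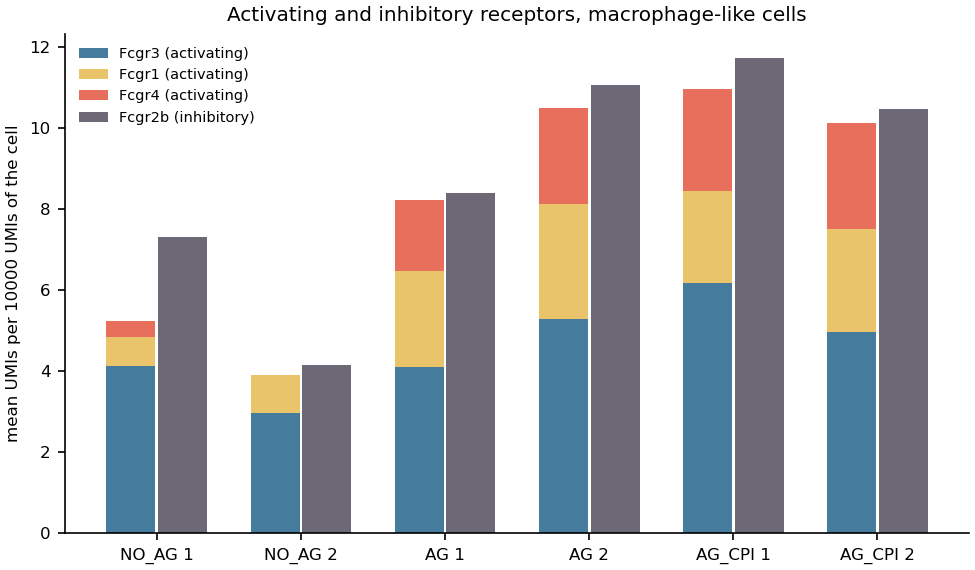
Mean level (y axis, UMIs per 10000 UMIs of the cell) in macrophage-like cells of each mouse (x axis): the stacked bar adds the activating receptors Fcgr3, Fcgr1 and Fcgr4, and the bar beside it is the inhibitory Fcgr2b. The paired bars are close in height in every mouse except NO_AG 1, while Fcgr4 makes up 0% to 7.31% of the stack in NO_AG and 21.4% to 26.0% in the other mice.

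Dendritic-like cells carried Fcgr2b and Fcer1g and little else of the family. Fcer1g had levels of 12.0 and 6.79 in the NO_AG mice, 15.7 and 15.6 in the AG mice, and 17.4 and 4.86 in the AG_CPI mice, and the AG_CPI mice lay on both sides of all the others. Fcgr2b had levels of 2.54 and 1.43 in the NO_AG mice, 1.57 and 1.93 in the AG mice, and 2.70 and 0.629 in the AG_CPI mice, with no separation of the groups. Only these 2 of the 5 genes passed the filter, and neither was called in any comparison. In AG against NO_AG, 1.31% of 3216 genes were called, and the differences were 0.94 for Fcer1g (95% interval 0.08 to 1.80, limma adjusted p = 0.384) and 0.02 for Fcgr2b (-0.99 to 1.03, limma adjusted p = 0.995). In AG_CPI against AG (0.0933% called) they were -0.80 (-1.66 to 0.06) and -0.41 (-1.42 to 0.60). In AG_CPI against NO_AG (1.77% called) they were 0.14 (-0.72 to 1.00) and -0.39 (-1.40 to 0.62). Without AG_CPI 1, which had the highest levels, the differences in AG_CPI against AG were -1.63 for Fcer1g (limma adjusted p = 0.0514) and -1.30 for Fcgr2b (0.509), and Fcer1g in AG_CPI against NO_AG was -0.69, the opposite sign (0.482), while Fcgr2b there was -1.29 (0.222).
The activating receptors were sparse. Fcgr1 had 0 UMIs in both NO_AG mice and in AG 1, 23 UMIs in AG 2, and 2 and 4 in AG_CPI. Against the 3 UMIs that a count of 0 over the NO_AG group allows, Fcgr1 was at least 3.03-fold higher in AG, or at least 2.27-fold by the exact 95% interval that also covers the counting error of the AG UMIs, and every UMI came from AG 2. Fcgr3 had 53 UMIs in AG, 45 of them in AG 2, and 5 in NO_AG, a ratio of 4.18 (95% exact interval 1.68 to 13.4, counting error only), or 2.46 (0.711 to 9.58) without AG 2. Its level was 0.394 and 0.145 in the NO_AG mice and 0.363 and 0.838 in the AG mice, so AG 1 lay below NO_AG 1. Fcgr4 had 0 to 6 UMIs per mouse. The log2 ratio of activating receptors to Fcgr2b was -2.25 and -2.83 in the NO_AG mice and -2.11 and -0.45 in the AG mice. For the AG_CPI mice it was -0.65 and -0.32. On these mean levels AG 1 lay with NO_AG and the other 3 mice lay higher. That grouping did not hold from summed UMIs. There AG 1, at -1.91, lay nearer to AG_CPI 1, at -1.62, than to the NO_AG mice, at -2.87 and -2.58. AG 2 then stood at -0.46 and AG_CPI 2 at 0.35. These ratios rest on 3 to 74 activating UMIs per mouse. B cell markers summed to 3.07 in NO_AG 1 and 3.91 in AG_CPI 2 and to 0 to 0.129 in the other 4 mice, and B cells are known to carry Fcgr2b. Macrophage markers summed to 9.10 and 7.41 in the NO_AG mice, 28.3 and 18.2 in the AG mice, 20.8 in AG_CPI 1 and 1.69 in AG_CPI 2, with 5 to 14 of 18 detected and Lyve1, Mertk and Cd5l at 0 in all 6 mice. The make-up of the class differed too: sub-cluster 4, led by Apod, Cd209a and Cd209e and with the B cell genes Cd79a and Igkc among its top 10, held 48.4% and 6.25% of it in the NO_AG mice, 25% and 65.5% in the AG mice, and 46.4% and 40.7% in the AG_CPI mice. In AG 2, the mouse with at least 10 cells in each of the 3 sub-clusters of the class, Fcer1g stood at 20.2 in sub-cluster 4, 9.89 in sub-cluster 5 (led by Xcr1) and 4.15 in sub-cluster 12 (led by Fscn1 and Ccr7), and Fcgr3 at 1.15, 0.508 and 0. The part of B cell markers, macrophage markers and make-up in the receptor levels of the class was not tested.

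Langerhans-like cells carried Fcer1g at 15.9 and 14.3 in NO_AG and at 11.7 and 11.7 in AG. Both AG mice were lower, but the difference of -0.36 (95% interval -0.69 to -0.02) did not pass the test (limma adjusted p = 0.273), where 1.61% of 5515 genes were called. Fcgr2b, the main Fc gamma receptor of these cells, had levels of 1.13 and 0.927 in NO_AG and 0.627 and 1.89 in AG, so the AG mice lay on both sides of NO_AG. Its difference was 0.10 (95% interval -0.89 to 1.10, limma adjusted p = 0.922). Without AG 1 both were called, Fcgr2b at 0.83 (limma adjusted p = 0.00727) and Fcer1g at -0.35 (0.0228), and without AG 2 Fcer1g alone was called at -0.36 (0.0247), with Fcgr2b at -0.62 (0.0770), the opposite sign. These 2 fits called 1463 of 5477 and 1386 of 5469 genes, so the receptor calls in them single out neither gene. Within sub-cluster 1, which held 15.96% and 26.4% of these cells in NO_AG and 72.7% and 89.7% in AG, Fcer1g differed by -0.08 and Fcgr2b by -0.21. Only these 2 of the 5 genes passed the filter. Fcgr1 had 0 UMIs in 309 NO_AG cells and 1 in each AG mouse, and Fcgr4 had 1 UMI in all, in AG 2. Fcgr3 had 6 UMIs in NO_AG and 14 in AG, a ratio of 6.93 (95% exact interval 2.50 to 22.0, counting error only). Of the 14 UMIs 11 came from AG 2, and the ratio was 2.89 (0.468 to 13.6) without AG 2, 11.2 without AG 1 and 11.4 without NO_AG 2. The level was 0.0221 and 0.0503 in the NO_AG mice and 0.0899 and 0.444 in the AG mice. In the same AG cells the summed level of T cell markers was 2.33 and 2.82 against 0.154 and 0.186 in NO_AG, that of keratinocyte markers was 11.8 and 15.9 against 6.97 and 3.37, and that of macrophage markers was 19.7 and 46.5 against 18.2 and 14.4. Dendritic markers summed to 243 and 332 against 149 and 164, and monocyte markers to 3.85 and 3.97 against 1.74 and 1.13. Neutrophil markers were lower, at 2.48 and 1.82 against 3.09 and 3.52. Their part in the Fcgr3 count was not tested.

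The 20 monocyte-like cells were nearly all from AG 1 (9 cells) and AG_CPI 1 (8 cells). In those 2 mice Fcer1g stood at 53.6 and 39.5, Fcgr2b at 3.03 and 2.00, Fcgr3 at 1.90 and 2.60, and Fcgr1 at 0.827 and 0.754. Fcgr4 stood at 4.89 in AG 1, from 10 UMIs, and at 0.203 in AG_CPI 1, from 1 UMI. With so few cells these are values of single samples.

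The change of a gene was also compared between classes within each mouse. For macrophage-like minus dendritic-like cells in AG against NO_AG, the difference was 1.23 for Fcgr2b (SE 0.73, limma adjusted p = 0.482) and 0.55 for Fcer1g (SE 0.76, 0.761), where 0.0322% of 3103 genes were called. In AG_CPI against NO_AG it was 1.85 and 1.20 (limma adjusted p = 0.247 and 0.437), where 0.0645% were called, and without AG_CPI 1 it was 2.66 and 2.09 (limma adjusted p = 0.477 and 0.496). For macrophage-like minus Langerhans-like cells in AG against NO_AG it was 1.15 for Fcgr2b and 1.85 for Fcer1g (SE 0.47, limma adjusted p = 0.214, or 0.0351 with 0.5 added in place of 0.1), where 0.02% of 5001 genes were called. So a change in macrophage-like cells that differs from that of the other classes was not shown at the stated setting for Fcgr2b or Fcer1g, and the other receptors passed no filter there.

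The UMIs of each gene were also divided by the class of the cell that held them, over the whole skin sample. Macrophage-like cells were 0.525% and 0.430% of retained cells in the NO_AG mice, 4.66% and 11.8% in the AG mice, and 12.6% and 9.27% in the AG_CPI mice. Of all Fcgr2b UMIs in NO_AG, 37.6% and 44.1% lay in Langerhans-like cells and 22.1% and 18.4% in macrophage-like cells, whereas macrophage-like cells held 81.9% to 91.8% in AG and AG_CPI. All 6 and 5 Fcgr1 UMIs in NO_AG, and 83.8% to 94.4% in the other mice, lay in macrophage-like cells. Per retained cell of the whole sample, the mean level of Fcgr1 was 0.00378 and 0.00399 in the NO_AG mice, 0.119 and 0.395 in the AG mice, and 0.307 and 0.246 in the AG_CPI mice.
Fcer1g behaved otherwise, because T cells carried it. T cell clusters led by Trdv4, a gamma-delta T cell receptor segment, held 57.2% and 66.7% of the Fcer1g UMIs in the NO_AG mice, 25.8% and 5.63% in the AG mice, and 0.444% and 2.07% in the AG_CPI mice. Macrophage-like cells held 2.01% and 2.36% in the NO_AG mice, 57.1% and 72.1% in the AG mice, and 84.6% and 85.3% in the AG_CPI mice. The mean level of Fcer1g over all cells was 6.91 and 5.41 in the NO_AG mice, 7.06 and 11.1 in the AG mice, and 7.78 and 6.51 in the AG_CPI mice, so AG_CPI 2 lay between the NO_AG mice. Dissociation of skin can favour some cell types, so a share of cells here is not a number of cells in the skin.

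**Figure D5:**
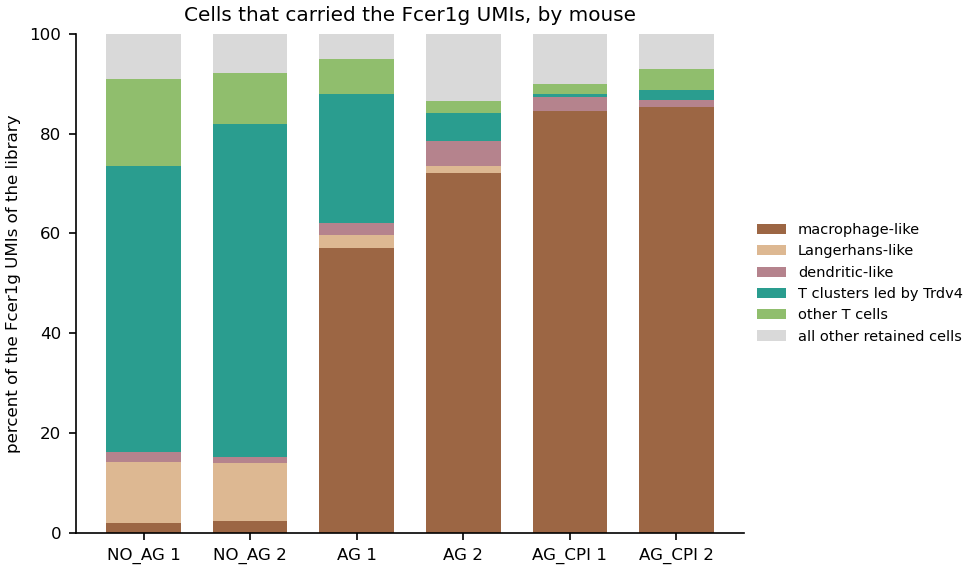
Percent of the Fcer1g UMIs of each library (y axis) by the class of the cell that held them, for the 6 mice (x axis). T cell clusters led by Trdv4 hold 57.2% and 66.7% in NO_AG, and macrophage-like cells hold 57.1% to 85.3% in AG and AG_CPI.

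The genes around the receptors were read from lists by role, in macrophage-like cells, and a list is described by its counts beside the same over all genes (12.4% higher and 1.25% lower in AG against NO_AG, and 13% higher (853 of 6580) and 1.37% lower in AG_CPI against NO_AG). Members with few UMIs in NO_AG passed the filter only through the groups where they are high, so lists are also counted over genes with at least 10 UMIs in every group, of which 17.5% were higher in AG and 16.1% in AG_CPI, each against NO_AG. Under the deposited scaling 3.42% of all genes were higher and 1.44% lower in AG against NO_AG, and 4.67% were higher and 1.93% lower in AG_CPI against NO_AG. The list drawn up as partner receptors of the Fcer1g chain held 10 genes, of which 6 were tested. Not every gene on it need use that chain. In AG against NO_AG 5 were higher and 0 lower, with a median of 2.70, or 2.22 with the 2 genes at 0 in NO_AG placed at their 3-UMI bound. The same counts were found in AG_CPI against NO_AG (5 higher, 0 lower), and also under the deposited scaling in both comparisons. Clec4e and Clec4d, at 0 in NO_AG, passed the filter through the other groups alone and could be called only higher, and with at least 10 UMIs in every group 1 gene of the list was tested, Clec4n, which was higher. Clec4n, which encodes dectin-2, had levels of 0.919 and 0.874 in the NO_AG mice, 3.41 and 3.47 in the AG mice, and 7.46 and 5.07 in the AG_CPI mice, and rose by 2.26 in AG against NO_AG (SE 0.25, limma adjusted p = 0.00704). Clec4e, which encodes Mincle, had 0 UMIs in NO_AG and levels of 0.461 and 0.895 in AG and 2.38 and 1.92 in AG_CPI. Clec4d, its partner chain, likewise had 0 UMIs in NO_AG and reached 0.708 and 1.13 in AG and 2.31 and 2.08 in AG_CPI.

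Of 8 other antibody receptors listed, 3 were tested and 2, Fcgrt and Fcrls, were lower in both comparisons with NO_AG, under the deposited scaling as well, and both had at least 10 UMIs in every group. Fcgrt, the neonatal Fc receptor that salvages IgG from degradation, had levels of 2.78 and 5.75 in the NO_AG mice, 1.04 and 0.835 in the AG mice, and 0.551 and 0.876 in the AG_CPI mice. It fell by 1.55 in AG against NO_AG (SE 0.40, limma adjusted p = 0.0438). Fcrls, an Fc receptor-like gene, had levels of 2.29 and 2.63 in NO_AG and 0.0396 to 0.381 in the other mice, and fell by 2.91 (SE 0.61, limma adjusted p = 0.0278).

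Of 2 other ITAM adapters, Tyrobp, the DAP12 chain, had levels of 22.2 and 23.5 in the NO_AG mice, 32.3 and 42.2 in the AG mice, and 34.5 and 35.2 in the AG_CPI mice. It rose by 1.15 (SE 0.18, limma adjusted p = 0.0143), a call lost under the deposited scaling (limma adjusted p = 0.0763) and kept with at least 10 UMIs in every group. Among 24 kinases and adapters downstream of activating receptors, 7 were higher and 0 lower in AG against NO_AG (median 0.97, or 0.84 with the gene at 0 in NO_AG at its bound), and 5 were higher and 0 lower in AG_CPI against NO_AG. The count was 4 and 3 under the deposited scaling. With at least 10 UMIs in every group 9 of the list were tested and 1 was higher in each comparison. Among the genes not tested there is Fgr, a Src-family kinase of the kind that phosphorylates the ITAM, with 3 UMIs in NO_AG, levels of 0.0843 and 0.185 there and 1.05 to 1.31 in the other mice.

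Among 16 phosphatases and inhibitory receptors, 4 were higher and 0 lower in each comparison with NO_AG (median 0.82 and 0.86, the second 0.74 with Cd22, at 0 in NO_AG, at its bound), and 2 and 3 were higher under the deposited scaling. With at least 10 UMIs in every group, 9 were tested and 4 and 3 were higher. Lair1, an ITIM receptor for collagen, had levels of 0.453 and 0.390 in NO_AG and 1.60 to 1.97 in the other mice, and its 6 UMIs in NO_AG mean that it passed the filter only through the other groups. Cd72, another ITIM receptor, had levels of 0.822 and 1.23 in the NO_AG mice, 7.44 and 3.85 in the AG mice, and 3.20 and 5.94 in the AG_CPI mice, and rose by 2.73 (SE 0.43, limma adjusted p = 0.0143). Ptpn6, which encodes the phosphatase SHP-1, rose by 1.43 in AG against NO_AG (SE 0.37, limma adjusted p = 0.0444), a call lost under the deposited scaling (0.148).

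Of 22 interferon gamma response genes tested, of 25 listed, 10 were higher and 0 lower in AG against NO_AG (median 1.35, or 1.32 with Nos2, at 0 in NO_AG, at its bound) and 12 were higher and 0 lower in AG_CPI against NO_AG (median 1.30). Under the deposited scaling 6 and 4 were higher. With at least 10 UMIs in every group, 9 were tested, and 6 and 5 were higher and 0 lower. Cxcl9, a chemokine induced by interferon gamma, had levels of 0.511 and 0.852 in the NO_AG mice, 24.2 and 14.9 in the AG mice, and 27.8 and 31.2 in the AG_CPI mice. With 8 UMIs in NO_AG, it too passed the filter only through the other groups. Gbp2, a guanylate-binding protein, was called in all 3 classes in AG against NO_AG, by 1.83 in macrophage-like (SE 0.25, limma adjusted p = 0.0100) and 2.07 in dendritic-like cells (0.0119), and in Langerhans-like cells from 2 UMIs in NO_AG to levels of 0.671 and 1.89 in AG (0.0188). In dendritic-like cells 2 of 17 tested genes of the list were higher and 0 lower, where 1.12% of all genes were higher, and in Langerhans-like cells 4 of 9 were higher and 0 lower, where 0.907% were. With at least 10 UMIs in every group 2 of 13 were higher in dendritic-like cells (0.924% of all genes) and 3 of 8 in Langerhans-like cells (0.749%), the latter without Gbp2. Neither Fcgr2b nor Fcer1g was called in these classes.

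Of 7 myeloid transcription factors tested, Spi1, which encodes PU.1, and Cebpb were higher in AG against NO_AG, and Cebpb alone in AG_CPI against NO_AG. With at least 10 UMIs in every group the same 7 were tested and 2 were higher in each comparison. Cebpb had levels of 3.39 and 3.02 in the NO_AG mice, 5.35 and 6.82 in the AG mice, and 8.89 and 6.84 in the AG_CPI mice (1.35, SE 0.22, limma adjusted p = 0.0156). Spi1 had levels of 4.40 and 2.48 in the NO_AG mice, 6.23 and 6.09 in the AG mice, and 4.51 and 5.45 in the AG_CPI mice (1.33, SE 0.29, limma adjusted p = 0.0294). Both calls were lost under the deposited scaling (limma adjusted p = 0.0634 for Cebpb and 0.112 for Spi1), and the median of the list, 0.22, was below that of all genes. In AG_CPI against AG, no gene of any list was called in macrophage-like cells.

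The IgG ligands themselves were scarcely sampled. Ighg1, the heavy chain of IgG1, had 0 UMIs in all 6 libraries. Ighg2b had 1 and 7 UMIs in the NO_AG mice, 6 and 1 in the AG mice, and 2 and 0 in the AG_CPI mice, and Ighg2c had at most 2 UMIs in any library. Ighm, the IgM heavy chain, stood at 27.1 and 29.5 CPM (its UMIs relative to all UMIs of the library) in the NO_AG mice, 65.0 and 48.2 in the AG mice, and 28.2 and 68.5 in the AG_CPI mice. Igkc, the kappa light chain that antibodies of every class can carry, stood at 0.866 and 0.233 CPM in the NO_AG mice, 6.99 and 8.77 in the AG mice, and 8.64 and 15.6 in the AG_CPI mice. All 4 AG and AG_CPI mice were above both NO_AG mice for Igkc, from 19 to 66 cells with a UMI against 5 and 3, and no test was run on these whole-library values. Igkc was among the leading genes of the plasmacytoid dendritic-like cluster, with 0 cells in NO_AG and 8, 18, 15 and 13 elsewhere. It was also among those of dendritic-like sub-cluster 4. Jchain, another antibody chain gene, had 16 and 1 UMIs in NO_AG, 3 and 1 in AG, and 0 in AG_CPI. Which cells account for the Igkc values was not tested. In macrophage-like cells, 1 of the 10 measured antibody chain genes passed the filter. It was lower in AG against NO_AG (-2.28), where 1.25% of all genes were lower. It was also lower in AG_CPI against NO_AG (-3.11), where 1.37% were. Both calls held under the deposited scaling and with at least 10 UMIs in every group. The IgG heavy chains were too few to compare with their receptors, and antibody protein in the skin was not measured.

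Across the 16 class-and-mouse units of macrophage-like, dendritic-like and Langerhans-like cells with at least 10 cells, the levels of the 5 genes followed each other, with Pearson r from 0.773 between Fcgr4 and Fcer1g to 0.944 between Fcgr2b and Fcgr3. These correlations are a description, since units share mice and libraries and the classes differ throughout. Among 9079 genes, those most like Fcgr1 were Cd300ld (r = 0.956), Rsad2 (0.944) and Cyp4f18 (0.943). Those most like Fcgr4 were Nr1h3 (0.968), Itga9 (0.954) and Il1rn (0.942), and those most like Fcgr3 were Capg (0.964), Npc2 (0.959) and Gbp3 (0.956). Ctsl (0.953), Npc2 (0.931) and Ecm1 (0.929) were most like Fcgr2b. Cebpb (0.957), Lst1 (0.940) and Selenom (0.939) were most like Fcer1g.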

How the data were processed

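Dissociated skin of 6 mice was profiled with the 10x 5' kit. Per the submitters' processing notes, Cell Ranger 3.1 and mm10 were used. The deposited values are log10 of 1 plus UMIs per 10000 UMIs of the cell; whole UMIs were recovered for 100% of values, and the deposited genes hold 95.4% to 96.7% of the UMIs. Cells with under 200 genes or over 20% mitochondrial UMIs (51) and doublets (663) were removed. Cells were clustered with scanpy 1.11.5 and leidenalg 0.10.2 in Python 3.11.15 (2000 variable genes, 30 components, 15 neighbours, resolution 1), and phagocytes were clustered again. Clusters were named from marker lists by a scoring rule chosen after their leading genes were seen; other clusterings may name cells differently. Class means per mouse (at least 10 cells) were scaled by TMM and tested with limma 3.58.1 in R 4.3.3 on log2(mean + 0.1), for genes with at least 10 UMIs and a mean of 0.1 in 2 libraries, with a threshold of 0.05. Genes were named by a written rule: the 5 members, the 3 genes most correlated with each, and per list at most the 4 called genes with the smallest p. The receptor genes, lists and tests were chosen with earlier results of these data known. Each sample is a separate mouse. Alternatives covered the filter, pseudocount, scaling, thinning, doublets, clustering, cell filters, the replicate block and each mouse left out. The filter of 10 UMIs in every group, the fits within sub-clusters, the fit without cells holding B cell UMIs and the Fcgr3 ratios with a mouse left out were chosen after seeing the data.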

Additional observations from a re-analysis of the deposited data

Results flagged for a closer look

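In the mononuclear phagocytes of AG_CPI 1, 43 UMIs of the Y-linked gene Ddx3y were found outside the measurement of the receptors, in 14.6% of 268 cells, where the other 5 mice had 0. Xist had 12 UMIs there, in 2.61% of cells, against 369 to 850 UMIs, in 62.3% to 82.5% of cells, in the others. The labels give no sex, and the limma differences of the receptor genes over the whole macrophage-like and dendritic-like classes are given with and without this mouse, while those within sub-clusters and the gene lists are given with it alone.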

How the results depend on the processing

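For each value that changed, the cause was not tested, except that sub-cluster, stricter-filter and left-out-mouse settings use fewer cells, genes or mice by construction. In macrophage-like cells, AG against NO_AG called 898 genes, and 170 with no filter on low values, 320 under the deposited scaling, 380 with only the 2 groups compared, 427 with at least 10 UMIs in every group and 1 within sub-cluster 3. Of the 5 receptor genes 4 were called, but 2 with no filter and 0 within sub-cluster 3, where Fcgr2b (-0.43) and Fcgr3 (-0.28) changed sign. Over the settings that tested them, the difference ran from 1.55 to 3.22 for Fcgr1 and from 2.12 to 4.50 for Fcgr4. With a mouse left out in turn, 0 to 3299 genes and 0 to 5 receptor genes were called. AG_CPI against NO_AG called 943 genes, and 244 with no filter, 434 under the deposited scaling, 547 with only the 2 groups and 391 with at least 10 UMIs in every group. Its 5 receptor genes became 3 with no filter and 3 under the deposited scaling, and with a mouse left out 0 to 5 (0 to 3299 genes). AG_CPI against AG called 0 genes, but 1 with a pseudocount of 0.5, 24 with at least 20 cells, 29 with only the 2 groups, and 18, 10, 3 and 1 within sub-clusters 6, 7, 8 and 9. There Fcgr1 (-0.11) became 0.087 without cells holding T or keratinocyte UMIs and 0.20, 0.14 and 0.053 within sub-clusters 7, 8 and 9, and Fcer1g (-0.16) became 0.16 within sub-cluster 6.

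In dendritic-like cells, AG against NO_AG called 42 genes, and 9 with no filter, 24 under the deposited scaling, 9 when thinned, 20 with doublets kept, 72 at Leiden resolution 0.5, 65 with only the 2 groups, 27 without cells holding B cell UMIs and 6 to 32 with a mouse left out. Fcgr2b (0.02) became -0.13 under the deposited scaling, -0.043 from summed UMIs, -0.043 without B cell UMIs, and -0.38 to 0.44 with a mouse left out. AG_CPI against AG called 3 genes, and 0 with no filter, 1 without T or keratinocyte UMIs and 1 to 11 with a mouse left out; Fcgr2b (-0.41) became 0.033 when thinned and -1.30 to 0.51 with a mouse left out, and Fcer1g (-0.80) ran from -1.63 to 0.047. AG_CPI against NO_AG called 57, and 20 with no filter, 10 when thinned, 16 with doublets kept, 33 with only the 2 groups, 32 with at least 10 UMIs in every group, 36 without B cell UMIs, 4 within sub-cluster 5 and 36 to 49 with a mouse left out. Fcgr2b (-0.39) became 0.65 when thinned and -1.29 to 0.53 with a mouse left out, and Fcer1g (0.14) became -0.037 from summed UMIs, -0.66 within sub-cluster 5 and -0.69 to 0.98 with a mouse left out. In Langerhans-like cells 89 genes were called, and 4 with no filter, 0 when thinned, 58 with doublets kept, 3 without T or keratinocyte UMIs, 50 with at least 10 UMIs in every group, 51 within sub-cluster 1 and 59 to 1463 with a mouse left out, when 0 to 2 receptor genes were called. Fcgr2b (0.10) became -0.29 when thinned, -0.019 with doublets kept, -0.20 without T or keratinocyte UMIs, -0.21 within sub-cluster 1, and -0.62 to 0.83 with a mouse left out.

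For the differences between classes, macrophage-like minus dendritic-like in AG_CPI against AG ran from -0.21 to 1.42 for Fcgr2b and from -0.27 to 1.53 for Fcer1g with a mouse left out. Macrophage-like minus Langerhans-like called 1 receptor gene with a pseudocount of 0.5. Dendritic-like minus Langerhans-like for Fcgr2b (-0.08) became 0.91 when thinned, 0.0076 under stricter cell filters, 0.44 with doublets kept, and -0.71 to 0.54 with a mouse left out. The log2 ratio of activating receptors to Fcgr2b in macrophage-like cells of AG (-0.05) became -0.00335 from summed UMIs and -0.0125 without T or keratinocyte UMIs, and without those UMIs it was -3.198 in dendritic-like cells of NO_AG and -0.74 in those of AG_CPI.

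Replicate numbers did not pair the mice: same-numbered mice had correlations of at most 0.013 in their deviations, -0.057 to 0.003 in macrophage-like cells, and -0.153 between NO_AG and AG in dendritic-like cells. With the replicate block, macrophage-like cells gave 699, 0 and 763 calls and changed no receptor call, dendritic-like cells gave 66 in AG against NO_AG, and Langerhans-like cells gave 162. Depth limits the activating receptors outside macrophage-like cells, and Fcgr1 and Fcgr4 in NO_AG. On simulated data, genes with under 10 UMIs in NO_AG were called too often.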

Other observations

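Outside the phagocytes, Fcer1g was carried by T cell clusters led by Trdv4, with a UMI in 100% of cells. Its levels there were 41.3 and 42.6 in the NO_AG mice, 47.4 and 44.8 in the AG mice, and 30.4 and 45.9 in the AG_CPI mice, the last group from 6 and 17 cells. The AG mice were slightly above the NO_AG mice, and no test was run on these clusters. Fcer1g is known as a signalling chain of the T cell receptor complex in some gamma-delta T cells. In these clusters Fcgr1 and Fcgr4 had 0 UMIs in all 6 mice, and Fcgr2b had levels of 0.128 to 0.352 in NO_AG and AG and 0 in AG_CPI.

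A small cluster with neutrophil markers (2, 29, 4 and 4 cells in AG and AG_CPI) had Fcer1g at 17.8, 33.2, 32.4 and 39.9 and Fcgr3 at 0, 2.16, 1.26 and 2.34. Its leading genes held S100a8, S100a9 and Retnlg from the neutrophil list, but also Il4 and Hdc from the basophil and mast cell lists. Fcgr4, known from neutrophils, had 0 UMIs in its 29 cells of AG 2, which allows a share of cells with a UMI of up to 10.3%. How many of these cells were neutrophils was not determined. Plasmacytoid dendritic-like cells (8, 18, 15 and 13 cells) had Fcer1g at 13.5, 18.5, 9.99 and 11.2.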
